A study of Mus musculus with 48 samples.

Results

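Eef1a1 and Eef1a2 encode the paralogous forms of translation elongation factor eEF1A, and Rpl3 and Rpl3l encode the paralogous forms of the large subunit ribosomal protein uL3. These 4 genes, of 27179 in the count table, were taken by name, as pairs whose members changed places between embryo and adult in an earlier look at the same counts. Their levels in CPM (counts scaled to the size of the library) and the ratios of Eef1a2 to Eef1a1 and of Rpl3l to Rpl3 chose them, so these values are given as a description and carry no test.

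Muscles were taken from male mice of FVB/NJ, an inbred strain, as adults and at the late embryonic stage E18.5, with no mutation or treatment given in the labels. The growth protocol and the design text give different ages for the adults, and the stage is therefore called adult. At each stage soleus and vastus intermedius were taken as slow-biased muscles, rich in fibres with slow myosin, and gastrocnemius and vastus lateralis as fast-biased muscles. The vastus muscles are thigh muscles, and the other two are shank muscles. Each of the 8 groups held 6 libraries, 1 per animal and muscle, with total counts of 14.9 to 32.4 M each and a median of 22.8 M.

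A collection, named here by a letter, is the set of muscles of a stage that share a tag. In adult collection B the library labelled vastus intermedius went against its label. It held 8920 CPM of Myh3 and 15600 CPM of Myh8, the embryonic and perinatal myosin heavy chains, whereas the other adult vastus intermedius libraries held 5.78 to 7.98 CPM of Myh8. It was left out of every group, and its values are given apart. At E18.5, collection B also stood apart, with 10.6 CPM of the slow myosin Myh7 in the library labelled vastus intermedius and 1160 CPM in the one labelled vastus lateralis. In collection F, too, vastus intermedius held less Myh7 than vastus lateralis, at 42.1 and 140 CPM. The other 4 E18.5 collections held 578 to 2480 CPM of Myh7 in vastus intermedius and 37.6 to 178 CPM in vastus lateralis. Whether the vastus labels were exchanged in collection B or F was not tested, and differences between the vastus muscles at E18.5 are given with and without each. Muscle was marked by 8 fibre genes (Acta1, Ckm, Des, Ttn, Mb, Actn2, Tnnc2 and Tnnt3), which summed to 96100 to 272000 CPM in adult libraries and 10800 to 42500 CPM at E18.5. The tags read as dates, and what step a date marks is not stated. No date was shared between the stages, so stage and date cannot be told apart. Some collections share a date, namely D and E of the adults and C, D and E of the embryos.

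In every round of elongation, eEF1A in its GTP-bound form carries an aminoacyl-tRNA to the A site of the ribosome, and the eEF1B complex then reloads it with GTP. Eef1a1 is the general form. Eef1a2 is the form of adult skeletal muscle, heart and neurons, and its loss underlies muscle wasting in the wasted mouse. The protein uL3 reaches towards the peptidyl transferase centre, where peptide bonds are made. Rpl3 supplies it in most tissues, and Rpl3l is a form restricted to heart and skeletal muscle.

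The members of each pair are similar enough to raise the question of shared reads, so the first 90 coding bases of each gene are shown, with capitals at the bases that differ from the paralog.
Eef1a2: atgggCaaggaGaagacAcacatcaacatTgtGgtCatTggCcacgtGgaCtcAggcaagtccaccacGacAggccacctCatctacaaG
Eef1a1: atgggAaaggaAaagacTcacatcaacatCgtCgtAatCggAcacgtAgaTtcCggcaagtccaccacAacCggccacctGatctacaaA
Rpl3l: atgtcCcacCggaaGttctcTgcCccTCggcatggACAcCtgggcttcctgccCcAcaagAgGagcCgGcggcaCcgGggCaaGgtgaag
Rpl3: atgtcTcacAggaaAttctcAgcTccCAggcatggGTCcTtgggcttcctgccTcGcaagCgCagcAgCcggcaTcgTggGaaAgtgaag
Over these stretches Eef1a2 and Eef1a1 differed at 15 bases and Rpl3l and Rpl3 at 21. Over the whole coding sequence the eEF1A pair was 80.7% identical, and 220 of its 268 differences fell at the third base of a codon. The uL3 pair was 74.4% identical, and 183 of 310 differences fell at the third base. The longest run of identical bases was 23 in the eEF1A pair and 22 in the uL3 pair, and no stretch of 50 bases of a gene's transcript occurred in its paralog.

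Eef1a2 lies on chromosome 2 (chr2:181141758-181157015, minus strand, 8 exons) and Eef1a1 on chromosome 9 (chr9:78478453-78481724, minus strand, 8 exons) of GRCm38. Rpl3l lies on chromosome 17 (chr17:24727826-24736143, plus strand, 10 exons) and Rpl3 on chromosome 15 (chr15:80077781-80083406, minus strand, 10 exons). Counts covered the exons of each gene. Pseudogenes differ between the pair members: none of the 50-base stretches of Eef1a2 or Rpl3l occur in another gene, against 60.6% of those of Eef1a1 (in 21 genes, 18 of them pseudogenes) and 85.6% of those of Rpl3 (in 26 genes, all pseudogenes). The sources used here do not say how reads with several matches were counted. If such reads were left out, Eef1a1 and Rpl3 would be counted too low and both ratios too high, which was not tested. The levels of Eef1a1 and Rpl3, and the height of both ratios, are uncertain to that extent.

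Because Eef1a2 and Rpl3l moved together in these muscles, the 250 bases before their annotated starts are shown, with those of Eef1a1 for contrast (RefSeq, GRCm38.p6, each read in the direction of its gene). Capitals mark an E-box (CANNTG) or a MEF2 match, motifs bound by myogenic bHLH factors and by MEF2 factors in muscle genes.
Eef1a2, chr2:181157016-181157265: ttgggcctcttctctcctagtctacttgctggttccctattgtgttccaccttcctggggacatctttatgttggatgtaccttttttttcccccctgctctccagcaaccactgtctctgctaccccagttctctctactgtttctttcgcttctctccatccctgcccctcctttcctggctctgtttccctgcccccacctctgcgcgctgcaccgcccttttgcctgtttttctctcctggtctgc
Rpl3l, chr17:24727576-24727825: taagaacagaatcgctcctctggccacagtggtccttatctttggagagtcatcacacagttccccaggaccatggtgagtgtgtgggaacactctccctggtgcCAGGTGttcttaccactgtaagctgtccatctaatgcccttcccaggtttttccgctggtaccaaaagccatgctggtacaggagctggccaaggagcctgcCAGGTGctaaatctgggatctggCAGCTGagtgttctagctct
Rpl3l, second start, chr17:24732435-24732684: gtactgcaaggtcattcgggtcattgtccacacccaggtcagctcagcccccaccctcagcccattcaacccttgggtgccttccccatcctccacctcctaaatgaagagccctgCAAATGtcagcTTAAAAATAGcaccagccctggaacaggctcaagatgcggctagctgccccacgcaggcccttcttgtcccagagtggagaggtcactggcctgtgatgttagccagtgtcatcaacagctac
Eef1a1, chr9:78481725-78481974: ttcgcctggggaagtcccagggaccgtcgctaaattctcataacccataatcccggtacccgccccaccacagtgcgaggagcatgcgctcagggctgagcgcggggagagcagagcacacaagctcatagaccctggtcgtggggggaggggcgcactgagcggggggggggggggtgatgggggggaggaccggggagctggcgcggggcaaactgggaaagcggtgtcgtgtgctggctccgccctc
Upstream of the first Rpl3l start, E-boxes began 145, 43 and 20 bases before it. Upstream of the second start there was 1 E-box and 1 MEF2 match, which began 134 and 123 bases before it. The windows of Eef1a2 and Eef1a1 held neither motif. An E-box stood in 66.2% and a MEF2 match in 2.92% of 32851 mouse promoter windows of this length, searched on both strands. The Eef1a1 window was 68.0% G and C, against 54.0% for Eef1a2 and a median of 52.4% over all windows, and a GC box (GGGCGG, in 32.7% of windows) occurred in both. These matches describe the letters and say nothing of binding.

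Both muscle paralogs were abundant in adult muscle and scarce at E18.5, and both general paralogs had the opposite pattern, in all 4 muscles. Levels in CPM are scaled by TMM, a correction for the make-up of each library, and are given as lowest, median and highest of a group, or as each value in adult vastus intermedius, where 5 libraries remained.

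Eef1a2, the muscle form of eEF1A, held 1557, 1938 and 2042 CPM in adult soleus, against 3.62, 20.5 and 28.1 CPM at E18.5. In adult vastus intermedius it held 1882, 1987, 2218, 2301 and 2381 CPM, against 31.1, 102 and 133 CPM at E18.5. In adult gastrocnemius it held 2251, 2554 and 2772 CPM, against 1.53, 7.77 and 13.5 CPM at E18.5. The lowest adult library lay far above the highest E18.5 library in each of these muscles. In adult vastus lateralis it held 2376, 2598 and 4435 CPM, against 15.0, 85.5 and 118 CPM at E18.5, also with no overlap. The differences between stages, as log2 fold changes adult minus E18.5, were 6.68 ± 0.47 (SE) in soleus, 8.34 ± 0.46 in gastrocnemius, 4.59 ± 0.33 in vastus intermedius and 5.35 ± 0.43 in vastus lateralis. At E18.5 the vastus muscles held the higher levels, and the differences between stages were smaller there.

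Eef1a1, the general form, held 517, 547 and 578 CPM in adult soleus, against 3477, 3832 and 4250 CPM at E18.5. In adult vastus intermedius it held 361, 381, 413, 425 and 560 CPM, against 3193, 3425 and 3548 CPM at E18.5. It was thus not absent from adult muscle, but every adult library lay below every E18.5 library. In adult gastrocnemius it held 265, 340 and 377 CPM, against 3553, 3770 and 3936 CPM at E18.5, and in adult vastus lateralis 228, 303 and 463 CPM, against 3476, 3530 and 3754 CPM at E18.5. The log2 fold changes were -2.84 ± 0.11 in soleus, -3.56 ± 0.11 in gastrocnemius, -2.97 ± 0.13 in vastus intermedius and -3.52 ± 0.17 in vastus lateralis. At E18.5 the 4 muscles lay within a narrow band, whereas adult soleus lay above adult gastrocnemius and adult vastus lateralis with no overlap.

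Rpl3l, the striated muscle form of uL3, held 249, 289 and 328 CPM in adult soleus, against 0.693, 2.01 and 3.11 CPM at E18.5. In adult vastus intermedius it held 344, 390, 464, 492 and 498 CPM, against 2.39, 16.5 and 21.2 CPM at E18.5. In adult gastrocnemius it held 529, 556 and 577 CPM, against 0.255, 1.18 and 2.40 CPM at E18.5. The lowest of these, in E18.5 gastrocnemius, stood for 12 counts, so the low end of the embryonic range rests on few reads. In adult vastus lateralis it held 492.7, 530 and 616 CPM, against 3.19, 12.7 and 18.9 CPM at E18.5. The stages did not overlap in any muscle, and the log2 fold changes were 7.26 ± 0.32 in soleus, 8.73 ± 0.36 in gastrocnemius, 4.97 ± 0.43 in vastus intermedius and 5.52 ± 0.37 in vastus lateralis.

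Rpl3, the general form of uL3, held 68.8, 85.9 and 98.9 CPM in adult soleus, against 451, 470 and 597 CPM at E18.5. In adult vastus intermedius it held 47.7, 48.7, 56.2, 58.1 and 79.1 CPM, against 404, 425 and 479 CPM at E18.5. In adult gastrocnemius it held 33.7, 46.4 and 47.2 CPM, against 422, 474 and 540 CPM at E18.5. Again no adult library reached the lowest E18.5 library of its muscle. In adult vastus lateralis it held 29.9, 38.3 and 54.0 CPM, against 426, 458 and 484 CPM at E18.5. The log2 fold changes, adult minus E18.5, were -2.54 ± 0.11 in soleus, -3.53 ± 0.11 in gastrocnemius, -2.88 ± 0.13 in vastus intermedius and -3.51 ± 0.14 in vastus lateralis. As for Eef1a1, the differences were larger in the fast-biased muscles.

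**Figure D1:**
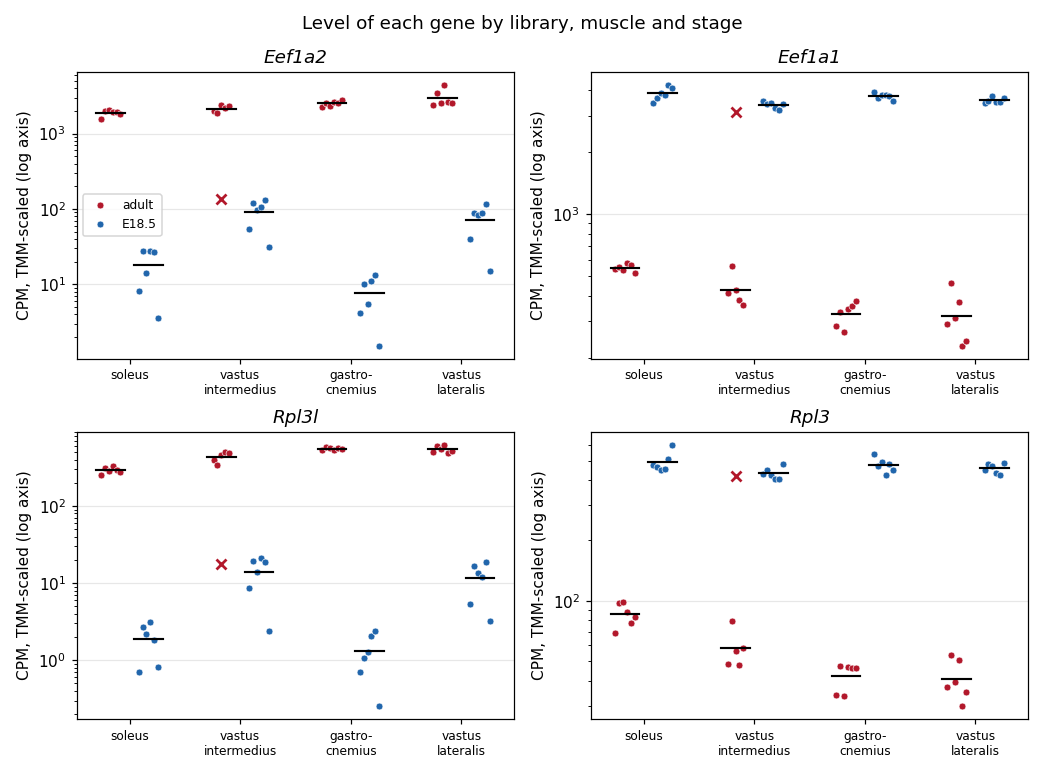
Level of Eef1a2, Eef1a1, Rpl3l and Rpl3 in CPM (TMM-scaled, log axis) by muscle, with 1 point per library, adult on the left and E18.5 on the right of each muscle, and a bar at the group mean. The cross is the library labelled adult vastus intermedius that was left out, and it sits beside the E18.5 points in all 4 panels, for example at 136 CPM of Eef1a2 and 3122 CPM of Eef1a1.

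The library left out had the embryonic pattern in all members. It held 136 CPM of Eef1a2, 3122 CPM of Eef1a1, 17.95 CPM of Rpl3l and 420 CPM of Rpl3. Of these, Rpl3l and Rpl3 lay inside the range of E18.5 vastus intermedius, Eef1a2 lay just above its highest library and Eef1a1 just below its lowest. Its ratios of counts per kilobase of exon were 0.0380 for Eef1a2 to Eef1a1 and 0.0364 for Rpl3l to Rpl3.

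By the counts deposited, the paralog that led each pair differed between stages in every library kept. Reads shared with pseudogenes may be missing from Eef1a1 and Rpl3, so the adult lead and the adult shares carry that doubt. Per kilobase of exon, which makes levels of different genes comparable, Eef1a2 made up 83.2% ± 6.16 (SD, n = 23) of the eEF1A pair in adult libraries, with a range of 71.6% to 91.2%, against 1.15% ± 1.12 (SD, n = 24) at E18.5, with a range of 0.0376% to 3.51%. Rpl3l made up 86.1% ± 7.79 of the uL3 pair in adult libraries, with a range of 71.1% to 93.4%, against 1.37% ± 1.43 at E18.5, with a range of 0.0482% to 4.28%. The libraries behind these means come from 6 animals per stage, with up to 4 muscles each.

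The ratio of Eef1a2 to Eef1a1, in counts per kilobase, was 2.52, 3.03 and 3.37 in adult soleus (lowest, median and highest), against 0.000768, 0.00435 and 0.00665 at E18.5. It was 2.94, 4.21, 4.91, 5.09 and 5.58 in adult vastus intermedius, against 0.00795, 0.0265 and 0.0363 at E18.5. By these counts Eef1a2 led in every adult library of both muscles and Eef1a1 in every E18.5 library. The ratio was 6.28, 6.72 and 7.67 in adult gastrocnemius, against 0.000377, 0.00184 and 0.00314 at E18.5, and 6.57, 8.25 and 10.4 in adult vastus lateralis, against 0.00356, 0.0206 and 0.0293 at E18.5. As a difference in log2 ratio of counts, which needs no library scaling, this came to 9.84 ± 0.50 (SE) in soleus, 12.2 ± 0.47 in gastrocnemius, 7.73 ± 0.38 in vastus intermedius and 9.15 ± 0.47 in vastus lateralis.

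The ratio of Rpl3l to Rpl3 separated the stages as widely. It was 2.47, 2.97 and 3.20 in adult soleus, against 0.00118, 0.00360 and 0.00587 at E18.5, and 3.71, 6.84, 7.05, 7.23 and 8.92 in adult vastus intermedius, against 0.00426, 0.0328 and 0.0447 at E18.5. In adult gastrocnemius it was 9.74, 10.4 and 14.2, against 0.000483, 0.00211 and 0.00427 at E18.5, and in adult vastus lateralis 9.54, 11.7 and 14.1, against 0.00563, 0.0239 and 0.0379 at E18.5. The differences in log2 ratio were 9.96 ± 0.41 in soleus, 12.5 ± 0.48 in gastrocnemius, 8.15 ± 0.56 in vastus intermedius and 9.30 ± 0.43 in vastus lateralis. Gastrocnemius had the largest difference between stages for both pairs, and vastus intermedius the smallest.

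Ordered by mean ratio of Eef1a2 to Eef1a1, the adult groups ran vastus lateralis, gastrocnemius, vastus intermedius and soleus, and the E18.5 groups vastus intermedius, vastus lateralis, soleus and gastrocnemius. In adults the ranges of vastus intermedius and gastrocnemius did not overlap, while vastus lateralis overlapped gastrocnemius and vastus intermedius overlapped soleus. For Rpl3l to Rpl3 the adult order was the same, with the ranges of vastus lateralis and gastrocnemius almost coinciding and the other neighbours apart. At E18.5 the order was also the same for both pairs, and each group overlapped its neighbour in that order.

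**Figure D2:**
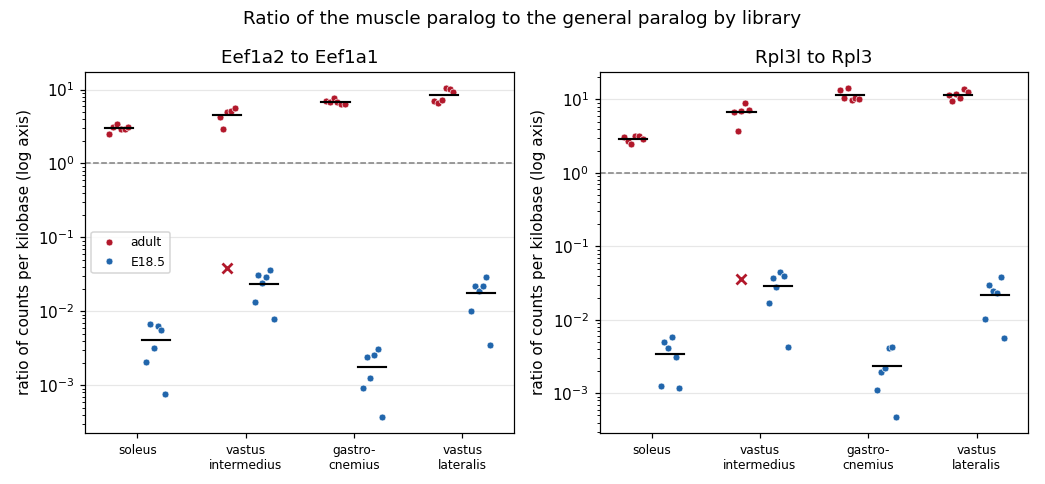
Ratio of Eef1a2 to Eef1a1 and of Rpl3l to Rpl3 in counts per kilobase (log axis) by muscle, with 1 point per library, adult on the left and E18.5 on the right, a bar at the group mean and a dashed line at equal levels. Adult libraries lie above the line, from 2.52 upwards for Eef1a2 to Eef1a1, and E18.5 libraries lie below 0.05, with soleus and gastrocnemius lowest. The cross is the library left out.

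The summed level of each pair was steadier than its members but depended on the scale. Per kilobase and TMM-scaled, the eEF1A pair in adults was 0.564 of its E18.5 level in soleus, 0.673 in gastrocnemius, 0.666 in vastus intermedius and 0.789 in vastus lateralis. The uL3 pair in adults was 0.679 of its E18.5 level in soleus, 1.08 in gastrocnemius, 0.970 in vastus intermedius and 1.08 in vastus lateralis. As shares of total counts, with no TMM, both pairs were lower in adults in every muscle, at 0.305 to 0.396 for eEF1A and 0.414 to 0.577 for uL3. The scales differ because TMM factors were 0.525 to 0.922 in adult libraries and 1.21 to 1.52 at E18.5. The median gene differed between stages by -0.04 to -0.15 with TMM and by -0.75 to -1.21 with total counts (log2, adult minus E18.5). The direction of each of the 4 members between stages held on both scales.

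The tissue itself also differed between stages. Markers of dividing cells (8 genes, among them Mki67 and Top2a) summed to 3.19 to 14.6 CPM in adults and 613 to 1010 CPM at E18.5, with Ccnb1, Bub1 and Aurkb under 1 CPM in all adult libraries. Markers of satellite cells and myoblasts (6 genes) summed to 34.1 to 85.6 CPM in adults and 328 to 606 CPM at E18.5, and fibroblast markers (8 genes) to 1030 to 3350 CPM and 11700 to 26800 CPM. Their part in the levels of the members was not tested. In bulk tissue, fewer cells of a type and less RNA per cell cannot be told apart.

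Among adult muscles, with TMM, the general paralogs were higher and the muscle paralogs lower in the slow-biased muscles. Averaged over both slow-biased and both fast-biased muscles, the slow-minus-fast log2 difference was 0.62 ± 0.10 (SE) for Eef1a1 and 0.79 ± 0.11 for Rpl3. It was -0.42 ± 0.09 for Eef1a2 and -0.59 ± 0.06 for Rpl3l. With total counts in place of TMM the differences were 0.97 for Eef1a1, 1.14 for Rpl3, -0.07 for Eef1a2 and -0.25 for Rpl3l, beside a median over all genes of 0.41 with total counts and 0.08 with TMM. The direction was the same on both scales for Eef1a1, Rpl3 and Rpl3l, while Eef1a2 hardly differed with total counts. Its adult medians were then 1736 CPM in soleus and 1728 CPM in gastrocnemius, and 1594 CPM in vastus intermedius and 1650 CPM in vastus lateralis. Between the vastus muscles alone, the Rpl3l difference was -0.29 with TMM and 0.0013 with total counts, a change of sign. The ratios do not depend on the scale. Cell markers differed between the same muscles. Endothelial markers (6 genes) summed to 557 to 653 CPM in soleus and 608 to 816 CPM in vastus intermedius, against 356 to 528 CPM in gastrocnemius and 270 to 443 CPM in vastus lateralis, and 6 of 6 rose in slow-biased muscles (35.9% of all genes rose and 30.1% fell). Fibre markers summed to 96100 to 139000 CPM in slow-biased muscles, against 161000 to 272000 CPM in fast-biased muscles, with 2 of 8 higher and 6 lower. The 8 include the fast troponin genes Tnnc2 and Tnnt3, so this sum does not measure fibre content alone. Erythroid markers (5 genes) summed to 77.7 to 190 CPM in slow-biased muscles, against 15.8 to 70.9 CPM in fast-biased muscles. None of these summed ranges overlapped between slow-biased and fast-biased muscles, and their part in the levels of the members was not tested.

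Within the same adult, the ratio of Eef1a2 to Eef1a1 was lower in soleus than in gastrocnemius in 6 of 6 animals, by -1.18 ± 0.14 (SD) on the log2 scale, and that of Rpl3l to Rpl3 in 6 of 6, by -1.95 ± 0.33. It was lower in vastus intermedius than in vastus lateralis in 5 of 5 animals for both, by -0.97 ± 0.23 for Eef1a2 to Eef1a1 and -0.89 ± 0.45 for Rpl3l to Rpl3. On the log2 scale, both ratios varied most between animals in adult vastus intermedius, with an SD of 0.36 for Eef1a2 to Eef1a1 and 0.48 for Rpl3l to Rpl3. Collection C had the lowest ratios there, 2.94 and 3.71 per kilobase, and held 10900 CPM of Myh7 and 1070 CPM of the fast myosin Myh4. Collection E had the highest ratio of Rpl3l to Rpl3 there, 8.92, and held 3020 CPM of Myh7 and 52700 CPM of Myh4. Collection F had the highest ratio of Eef1a2 to Eef1a1, 5.58, with 3180 CPM of Myh7 and 12900 CPM of Myh4. Collection D, with 7390 CPM of Myh7 and 5910 CPM of Myh4, had higher ratios (4.91 and 7.05) than collection A (4.21 and 6.84), with 5100 CPM of Myh7 and 15000 CPM of Myh4. Ordered by falling Myh7 (C, D, A, F and E), Rpl3l to Rpl3 rose at each step except from D to A. Eef1a2 to Eef1a1 rose except from D to A and from F to E. Neither ratio followed Myh4 throughout. The part of fibre content in these ratios was not tested.

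At E18.5 the slow-to-fast differences did not follow the adult pattern. The ratio of Eef1a2 to Eef1a1 was higher in soleus than in gastrocnemius in 6 of 6 embryos, by 1.18 ± 0.24 (SD, log2), and higher in vastus intermedius than in vastus lateralis in 6 of 6, by 0.52 ± 0.32. The difference between the vastus muscles was 0.53 without collection B and 0.39 without collection F, with 5 of 5 embryos in the same direction each time. Collection B itself had 0.48 and collection F 1.16, and these would turn negative if their vastus labels were exchanged. For Rpl3l to Rpl3 the differences were 0.59 ± 0.67 between soleus and gastrocnemius and 0.31 ± 0.48 between the vastus muscles, each positive in 5 of 6 embryos and no larger than its SD. Between the vastus muscles, the Rpl3l to Rpl3 difference was 0.31 without collection B (positive in 4 of 5), 0.45 without F (5 of 5) and 0.18 without D (4 of 5). The mean differences of Eef1a1 and Rpl3 were no larger than 0.09 in either muscle pair at E18.5 (log2 of CPM + 1), with single embryos between -0.19 and 0.40 for Rpl3 in soleus less gastrocnemius. Whether the slow-to-fast difference itself changed between stages was not tested, since the pairs were chosen by these values.

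Among the muscle comparisons made at E18.5, both ratios differed most between thigh and shank. Eef1a2 was higher in the vastus muscles than in soleus and gastrocnemius by 2.78 ± 0.37 (SE, log2), rank 13 from the top among 15751 genes, and Rpl3l by 3.03 ± 0.37, rank 10. The general paralogs differed little, by -0.14 ± 0.04 for Eef1a1 and -0.14 ± 0.05 for Rpl3. Within embryos the ratio of Eef1a2 to Eef1a1 was higher in the thigh in 6 of 6, by 3.02 ± 0.31 (SD). That of Rpl3l to Rpl3 was higher there in 6 of 6, by 3.11 ± 0.37. Both held within each date of the tags. In adults the same difference was 0.47 ± 0.37 for Eef1a2 to Eef1a1, with 4 of 5 animals higher in the thigh, and 0.61 ± 0.31 for Rpl3l to Rpl3, with 5 of 5.

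In the authors' deposited table of thigh against shank at E18.5, the log2 fold change was 2.65 for Eef1a2 and 3.00 for Rpl3l. Of 8 fibre markers, 7 rose in the thigh at E18.5 (edgeR's quasi-likelihood test, Benjamini-Hochberg adjusted), where 14.1% of all genes did. Their median difference was 0.84 and their largest 1.01, below those of Eef1a2 and Rpl3l. With total counts 7 of 8 also rose, with a median of 0.71, although the calls over all genes were then 1364 higher and 5697 lower in the thigh, against 2217 higher and 1692 lower with TMM. Satellite cell and myoblast markers fell in the thigh for 4 of 6 genes (10.7% of all genes did), with a median of -0.31. The part of fibre content in the thigh-to-shank difference was not tested.

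**Figure D3:**
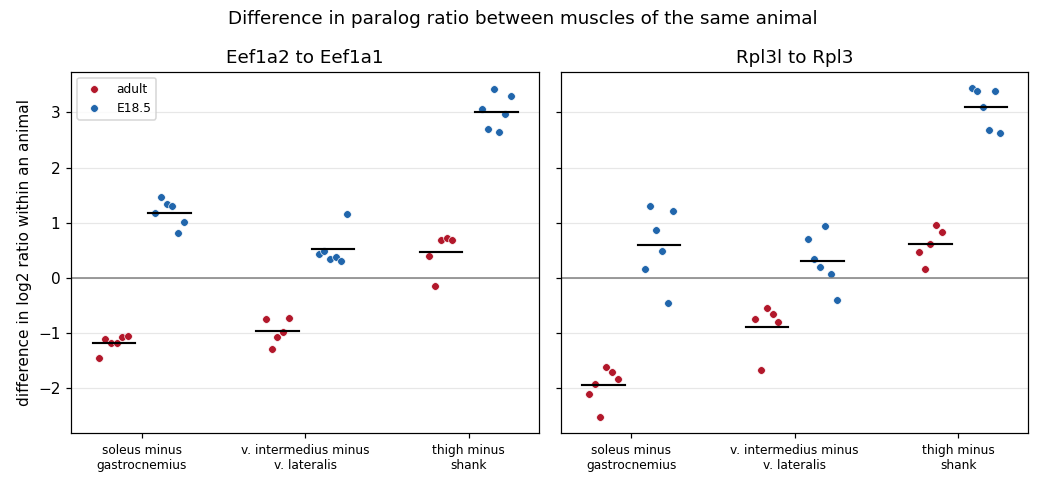
Difference in log2 ratio between muscles of the same animal for Eef1a2 to Eef1a1 and Rpl3l to Rpl3, with 1 point per animal, adult on the left and E18.5 on the right, and a bar at the mean. Adult points lie below 0 and most E18.5 points above 0 for both slow-minus-fast pairs, and E18.5 points lie between 2.64 and 3.44 for thigh minus shank.

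Embryos also differed from each other. Collection F had the lowest ratio of both pairs in all 4 muscles, with 0.00795 and 0.00426 in vastus intermedius and 0.000377 and 0.000483 in gastrocnemius for Eef1a2 to Eef1a1 and Rpl3l to Rpl3. Collection E had the highest ratio of Eef1a2 to Eef1a1 in 3 of 4 muscles and collection B in 1, and collections D and E had the highest of Rpl3l to Rpl3 in 2 muscles each. Fibre markers were also lowest in collection F in each muscle, for example 10800 CPM in soleus and 11700 CPM in gastrocnemius, where the other embryos held 12300 to 29700 CPM and 17000 to 21900 CPM. The part of fibre content in these ratios was not tested at E18.5. In adults no collection was lowest in more than 2 of its muscles for either pair, and collection E had the highest Rpl3l to Rpl3 in 3 of 4.

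Genes of the cytosolic ribosome other than Rpl3 fell in adults. Of 78 genes listed (46 large subunit, 32 small subunit, paralogs and Rpl3 left out), 76 could be tested. In adult against E18.5 soleus 76 of 76 fell, where 39.7% of all genes tested fell, and 75 fell in vastus intermedius (39.2% of all genes), 75 in gastrocnemius (44.0%) and 74 in vastus lateralis (42.6%). None rose in any muscle, and 73 fell in all 4 muscles, where 31.1% of all genes did. The median log2 fold change of the cytosolic ribosomal proteins was -0.97 in soleus, -0.76 in gastrocnemius, -0.82 in vastus intermedius and -0.76 in vastus lateralis, and the lowest of any gene and muscle was -1.72. Rpl3, at -2.54 to -3.53, lay below all of them in each muscle.

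Among large subunit genes that fell in all 4 muscles, the largest mean falls were those of Rpl36a (log2 -1.41, highest adjusted p 1.88e-09), Rpl41 (-1.18) and Rpl17 (-1.15). Among small subunit genes they were those of Rps19 (-1.56, highest adjusted p 1.07e-08), Rps26 (-1.34) and Rps16 (-1.31). With total counts 76 of 76 fell in each muscle, beside 62.0% of all genes in soleus, 72.6% in gastrocnemius, 64.2% in vastus intermedius and 71.7% in vastus lateralis. Many ribosomal protein genes have processed pseudogenes, so their counts carry the same doubt as that of Rpl3.

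In adult slow-biased against fast-biased muscles, the direction of the ribosomal proteins depended on the scaling. With TMM, 41 of 77 were lower and 0 higher in slow-biased muscles (30.1% of all genes were lower), with a median of -0.15. With total counts 3 were lower and 46 higher (beside 13.8% lower and 58.5% higher among all genes), with a median of 0.19. The slow-minus-fast difference of Rpl3 was 0.79 with TMM and 1.14 with total counts. Among large subunit genes, Rpl10 (-0.54, edgeR adjusted p 9.54e-08) and Rpl10a (-0.52, adjusted p 0.00333) had the largest falls with TMM. Among small subunit genes these were Rps28, at -4.82 (edgeR adjusted p 0.0208), and Rps26, at -0.47 (adjusted p 2.98e-05). The value of Rps28 lay far from that of Rps26, at a higher adjusted p. Its counts per library are not shown, and whether it rests on few libraries was not tested. At E18.5 none of 76 passed in the same comparison, where 0.368% of all genes passed.

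**Figure D4:**
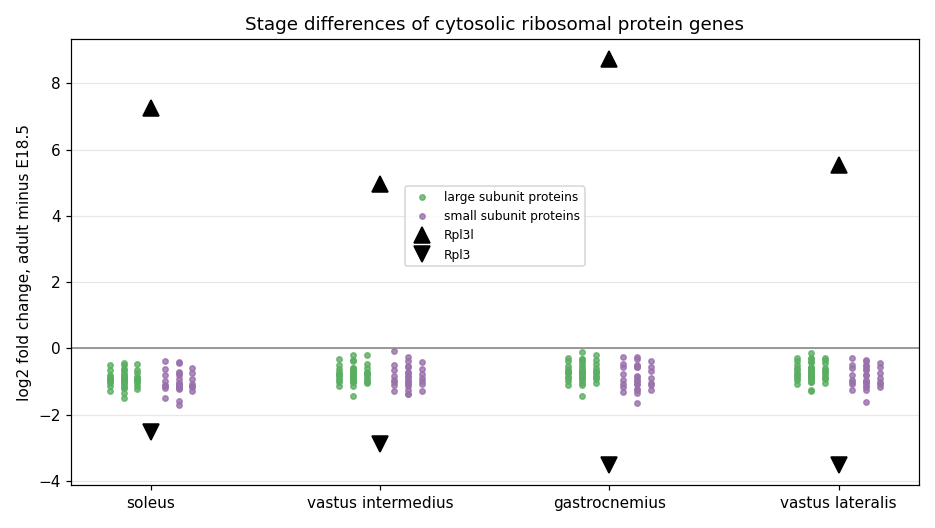
Log2 fold change, adult minus E18.5, of 45 large subunit (green) and 31 small subunit (purple) ribosomal protein genes in each muscle, with 1 point per gene, and of Rpl3l and Rpl3 (triangles). The 76 genes lie between -1.72 and -0.08, with Rpl3 below and Rpl3l far above them in each muscle.

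The partners of eEF1A in elongation showed both directions with TMM and a single direction with total counts. With TMM, of 10 other elongation factor genes, 4 fell and 0 rose in adult soleus, 4 fell and 1 rose in vastus intermedius, 4 fell and 6 rose in gastrocnemius, and 3 fell and 5 rose in vastus lateralis, while 36.3%, 36.9%, 38.2% and 36.4% of all genes rose and 39.7%, 39.2%, 44.0% and 42.6% fell. The counts that fell are thus near the share of all genes. With total counts all 10 fell in each muscle, where 62.0% to 72.6% of all genes fell. Eef1b2, the exchange factor that reloads eEF1A, fell in all 4 muscles by a mean of -1.49 (log2, adjusted p at most 1.43e-09), as did Eif5a2 (-1.27, adjusted p at most 0.00658) and the eEF1B scaffold subunit Eef1g (-0.49, adjusted p at most 0.000848). With TMM Eef2k, the kinase that inhibits eEF2, rose by 0.81 in gastrocnemius and 0.86 in vastus lateralis and did not pass in soleus (-0.23) or vastus intermedius (-0.09). In adults it was lower in slow-biased than in fast-biased muscles by -1.16 (adjusted p 3.58e-10). Of 5 tested genes that modify or escort eEF1A or uL3, the lysine methyltransferase gene Eef1akmt2 fell in all 4 muscles (mean -1.18, adjusted p at most 2.81e-05).

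Other steps of translation showed both directions. Of 44 initiation factor genes, 16 rose and 7 fell in all 4 muscles, where 26.2% of all genes rose and 31.1% fell in all 4. The largest mean rises were those of Eif3j2 (1.98), Eif1 (1.96) and the cap-binding protein gene Eif4e3 (1.90). Eif3j2 held 15 to 1021 counts and varied widely between embryos. Its log2 ratio to its paralog Eif3j1 ran from -5.87 to 0.622 in E18.5 soleus, against 0.0605 to 0.566 in adult soleus. The poly(A)-binding protein gene Pabpc1 fell most (-1.79), followed by Eif1a (-1.07) and the helicase gene Eif4a1 (-1.05). With total counts 34 of 44 initiation factors fell in soleus, where 62.0% of all genes fell, and 33 of 44 in gastrocnemius, where 72.6% did. Of 12 mitochondrial counterparts, which serve translation inside mitochondria, 8 rose in all 4 muscles, with the elongation factor genes Gfm1 (1.89) and Gfm2 (1.89) highest. With total counts 3 of the 12 fell in soleus (62.0% of all genes) and 8 in vastus lateralis (71.7% of all genes). Of 11 termination and recycling genes, 7 rose and 1 fell in all 4 muscles, and the release factor gene Gspt2 fell (-1.99). With total counts 7 of these 11 fell in soleus (62.0% of all genes) and 10 in gastrocnemius (72.6% of all genes).

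To set both pairs beside other paralogs, the same log2 ratio of counts was tested in 14 further pairs of translation genes, by an exact permutation test (two-sided, adjusted over 56 tests of pair and muscle). Of 56 tests 49 passed (87.5%), 31 with the first gene gaining and 18 with it losing. Pabpc4 gained on Pabpc1, the cytoplasmic poly(A)-binding protein pair, in all 4 muscles by 2.69 to 2.84 (exact test, adjusted p 0.00418 to 0.00606). Eif4ebp2 gained on Eif4ebp1, a pair of translation repressors, by 1.95 to 2.87, and Eif4a2 on Eif4a1, the helicase pair, by 1.00 to 2.23, in all 4 muscles.

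In the other direction, Gspt2 lost against Gspt1, the release factor pair, by -1.16 to -3.32, on counts of Gspt2 from 0 to 244. Eif1b lost against Eif1 by -1.43 to -2.21. Among ribosomal protein pairs, Rpl36al gained on Rpl36a by 1.11 to 1.85 and Rps27l on Rps27 by 0.68 to 1.81 in all 4 muscles. Rpl22l1 passed in 2 of 4 muscles only and Rpl39l, with 0 to 98 counts, in 2 of 4. The log2 ratio of Rpl39l to Rpl39 still reached 6.07 in E18.5 vastus lateralis, so the general gene Rpl39 was itself hardly counted there. The passes of this pair are among the 49 and rest on few counts. The largest difference in any of these pairs was 3.32, against 7.73 to 12.5 in Eef1a2 to Eef1a1 and Rpl3l to Rpl3, which were chosen for it.

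**Figure D5:**
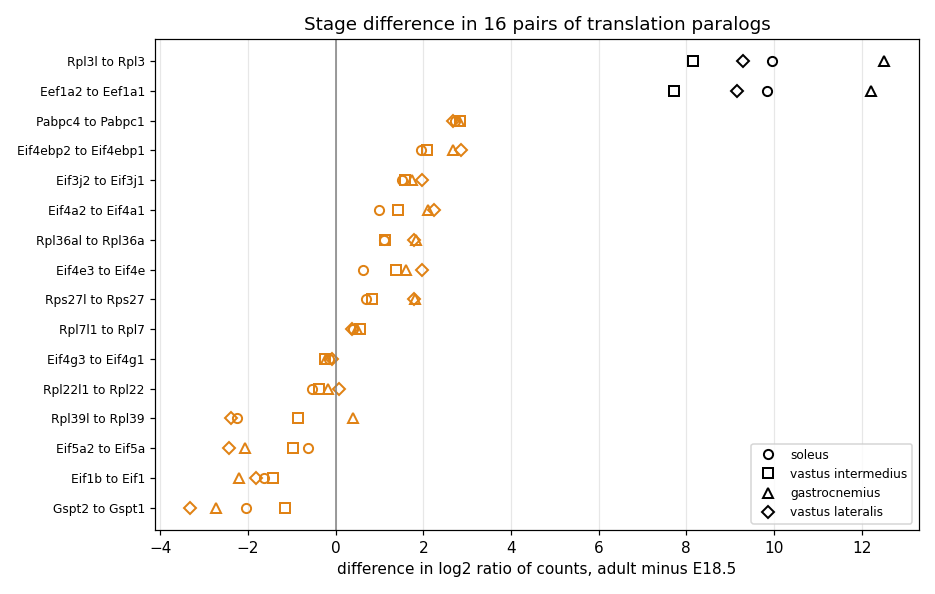
Difference in log2 ratio of counts, adult minus E18.5, for 16 pairs of translation paralogs, with 1 symbol per muscle (Eef1a2 to Eef1a1 and Rpl3l to Rpl3 in black, the other 14 pairs in orange). The orange symbols lie between -3.32 and 2.87 and the black ones between 7.73 and 12.5.

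Among the members, Eef1a2 and Rpl3l had the most similar profiles over the groups, as had Eef1a1 and Rpl3. Likeness was measured over the 8 group means of log2(CPM + 1), each gene centred on its own mean, as the root mean square difference, against 13475 genes with a mean of at least 1 CPM. Rpl3l was nearer to Eef1a2 (0.28) than any of these genes, and Eef1a1 was nearer to Rpl3 (0.098) than any of them, while 5 genes were nearer to Eef1a1 than Rpl3 was. Among the genes next to Eef1a2 were Xirp2 (0.47), which encodes a muscle actin-binding protein, Lrrc2 (0.73), the potassium channel gene Kcna7 (0.75) and Fbxo40 (0.77), a muscle F-box protein gene. These 4 genes were also among those next to Rpl3l, at 0.39 to 0.67. Next to Eef1a1 came Zcchc3 (0.05), Col6a1 (0.07), Ror2 (0.07), Cdk2 (0.09) and Slc1a4 (0.09), and next to Rpl3 came Sh3pxd2b (0.10), Usp11 (0.11), Pola1 (0.11), Chsy1 (0.11) and Slc1a4 (0.12). The 8 groups share animals and the contrast of stage, so near profiles mostly share the size of the stage difference. The members were chosen by these same levels, so their nearness to each other is a description and carries no support.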

How the data were processed

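The authors deposited raw counts per gene for 48 libraries, and per the submitters' processing notes the build was mm10, with alignment by STAR 2.7.11, trimming by Trimmomatic 0.39.0 and Subread 2.0.6 for counting. No annotation or strand setting is stated. The authors' deposited tables of their own comparisons hold log2 fold changes, their standard errors as a score, and p-values, and only the log2 values are quoted.

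Counts were fitted with edgeR 4.0.16 in R 4.3.3 (TMM, filterByExpr, quasi-likelihood tests, Benjamini-Hochberg adjustment, threshold 0.05), adult against E18.5 in each muscle and the 4 muscles within each stage. DESeq2 1.42.0, other scalings, a replicate block and leave-one-out fits were alternatives. The fits were tested on simulated data with known folds in few genes, as many raised as lowered. Far more genes differed between the stages here, so that run could not test the scaling between stages. Log2 ratios used counts with 1 added, while ratios and shares per kilobase used the counts unchanged. Levels per kilobase used the gene length in bases deposited with the counts. Exon numbers and coding sequences came from the GENCODE annotation of GRCm38. The 4 members, the lists of translation genes and markers, and the comparison of thigh with shank were chosen with earlier results of these data known. Named list genes were those past the threshold in all 4 muscles with the largest mean change. Others were those past it in adult slow-biased against fast-biased muscles with the largest difference.

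Columns carry date tags, lettered A to F in each stage and taken as animals, in place of the labels' animal numbers. Deviations from the group means correlated by 0.118 in adults and 0.198 at E18.5 within a collection, against -0.0238 and -0.0392 between collections. Every pair of libraries in a group differed beyond counting error (lowest chi-square per degree of freedom 10.8). In the stage fits and the exact tests, p-values measure the spread between animals of 1 strain. The main fits between muscles of a stage had no animal term. Their p-values and SEs took muscles of the same animal as independent and left out the pairing. Intervals and floors are not given, since counts of the members were 12 or more in every library. A gene among those nearest in profile to Eef1a2 and Rpl3l is not reported here.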

Additional observations from a re-analysis of the deposited data

Results flagged for a closer look

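Some slow-to-fast differences of the members ran in opposite directions in all animals of each stage, and the difference between stages was not tested. The log2 ratio of Eef1a2 to Eef1a1 differed between soleus and gastrocnemius by -1.18 in adults (6 of 6 animals lower) and by 1.18 at E18.5 (6 of 6 higher), and between vastus intermedius and vastus lateralis by -0.97 in adults (5 of 5 lower) and 0.52 at E18.5 (6 of 6 higher). On the log2(CPM + 1) scale Eef1a2 itself differed between soleus and gastrocnemius by -0.43 in adults and 1.09 at E18.5, and between the vastus muscles by -0.40 in adults and 0.43 at E18.5. Rpl3 differed between the vastus muscles by 0.58 in adults and -0.09 at E18.5, again with all animals of a stage on 1 side. At E18.5 the slow myosin of collections B and F went against their vastus labels. If the labels of either were exchanged, the vastus differences of that embryo would turn round, and the E18.5 embryos would no longer all lie on 1 side. Over 48 groups of values of the members and their ratios, no library stood out from its group.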

How the results depend on the processing

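With the adult vastus intermedius library that was left out, the difference in log2 ratio there was 6.58 for Eef1a2 to Eef1a1 (7.73 without it) and 6.91 for Rpl3l to Rpl3 (8.15 without it), 1118 genes passed between adult thigh and shank (2736 without it), and 3 other elongation factors passed in vastus intermedius (5 without it). With total counts 10 other elongation factors passed in soleus (4 with TMM) and 10 in vastus intermedius, 7061 genes passed between E18.5 thigh and shank (3909 with TMM) and 3 between the E18.5 vastus muscles (5 with TMM), and the adult vastus difference of Rpl3l reversed to 0.0013. DESeq2 called 257 genes for E18.5 slow against fast (58 with edgeR), 164 for soleus against gastrocnemius (45) and 19 for the vastus muscles (5). The causes were not tested.

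With collection as a replicate block, 212 genes passed for E18.5 slow against fast and 101 for E18.5 soleus against gastrocnemius. Leaving out each collection in turn gave 1477 to 2745 genes for adult thigh against shank, 10 to 237 for E18.5 slow against fast, 9 to 34 for E18.5 soleus against gastrocnemius, and 0 to 100 for the E18.5 vastus muscles. The highest of these E18.5 slow-against-fast and vastus counts came without collection B. The 4 members kept the direction of their stage difference under every alternative run. Rpl3l in E18.5 shank muscles, with as few as 12 counts, is where depth limits the ratios most.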
